A study of Mus musculus with 18 samples.

Results

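Type I interferon-stimulated genes were followed as a set of 36 named mouse genes, out of 46983 gene identifiers in the deposited tables. The members were taken by symbol, and all 36 had at least 1 read in at least 1 of 18 libraries. The libraries came from MC38 tumours, a colon adenocarcinoma line grown under the skin of female C57BL/6 mice that were 6 weeks old at injection. Mice were grouped 7 to 10 days later at an average tumour size of 100 mm3 and treated for 2 weeks. Both groups received anti-PD-1 antibody at 200 ug per mouse, so no library came from an untreated tumour, and 1 group received in addition D18 at 25 ug per mouse. The labels name D18 by that code alone. From each tumour group CD8+ T cells, T helper cells (labelled CD4) and dendritic cells were sorted, and each sort and treatment had 3 libraries made by the Smart-Seq2 protocol, which copies RNA of few cells into full-length cDNA without marking strand. Whether a library came from 1 mouse is not stated, so p-values measure only the spread between these libraries, which may be technical.

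Type I interferons are secreted when nucleic acid sensors detect foreign or misplaced DNA or RNA. They bind the receptor Ifnar1/Ifnar2, whose kinases set off a signal to the nucleus. A complex that holds Stat2 and Irf9 then binds the interferon-stimulated response element in the promoters of the genes described here. The products block viral RNA and protein synthesis, modify proteins with Isg15, amplify sensing, and in the case of Usp18 shut the receptor off. In tumours the response is known in dendritic cells, macrophages and T cells, so reads of these genes in a sort do not say which cell they came from.

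The genes lie in family clusters on several chromosomes (GENCODE M21 annotation of GRCm38). The 5 IFIT genes occupy one stretch of chromosome 19, from the start of Ifit2 at 34550694 to the end of Ifit1 at 34650009. Oas2, Oas3 and Oas1a follow each other on chromosome 5 between 120730333 and 120907521, and the related Oasl2 and Oasl1 lie on the same chromosome between 114896936 and 114937915. Rsad2 and Cmpk2 are neighbours on chromosome 12, Mx1 and Mx2 on chromosome 16, and Ifi44 and Ifi44l on chromosome 3.

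RefSeq promoters (GRCm38.p6) were found for 27 of the 36 genes. The 250 bases upstream of each start were searched on both strands for the core of the interferon-stimulated response element, GAAANNGAAA, counting overlapping matches. It was present for 12 of 27 members (44.4%), against 3.46% of 27025 genes in the table. A second motif, the gamma-activated site TTCNNNGAA, was present for 4 of 27 members (14.8%), against 8.13% of genes. Upstream stretches of 6 members are shown because they carry the element that defines the family, with the matches in capitals. Each is written 5′ to 3′ along the gene. A match is a description of these letters and does not show that a factor was bound.

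Isg15, chr4:156200860-156200911, minus strand: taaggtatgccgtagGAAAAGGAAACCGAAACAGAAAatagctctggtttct
Oas1a, chr5:120907526-120907560, minus strand: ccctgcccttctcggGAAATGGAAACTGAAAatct
Bst2, chr8:71537572-71537617, minus strand: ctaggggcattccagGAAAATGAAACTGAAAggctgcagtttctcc
Rsad2, chr12:26456548-26456587, minus strand: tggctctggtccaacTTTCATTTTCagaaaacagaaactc
Ifit1, chr19:34640770-34640828, plus strand: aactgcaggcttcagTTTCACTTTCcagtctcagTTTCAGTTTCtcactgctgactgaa
Ifit3, chr19:34583358-34583431, plus strand: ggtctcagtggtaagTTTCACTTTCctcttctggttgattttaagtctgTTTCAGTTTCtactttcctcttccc

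Isg15 carried 3 overlapping matches in the direction of the gene, and Oas1a and Bst2 carried 2 each. Ifit1 and Ifit3 carried 2 separate matches on the other strand. The stretch of Ifit3 occurs letter for letter upstream of Ifit3b, at 34607754 to 34607827. In the plot of matches by distance, those of Oas1a and of one Ifit1bl1 promoter lie nearest the start, and that of Stat2 lies farthest from it.

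**Figure D1:**
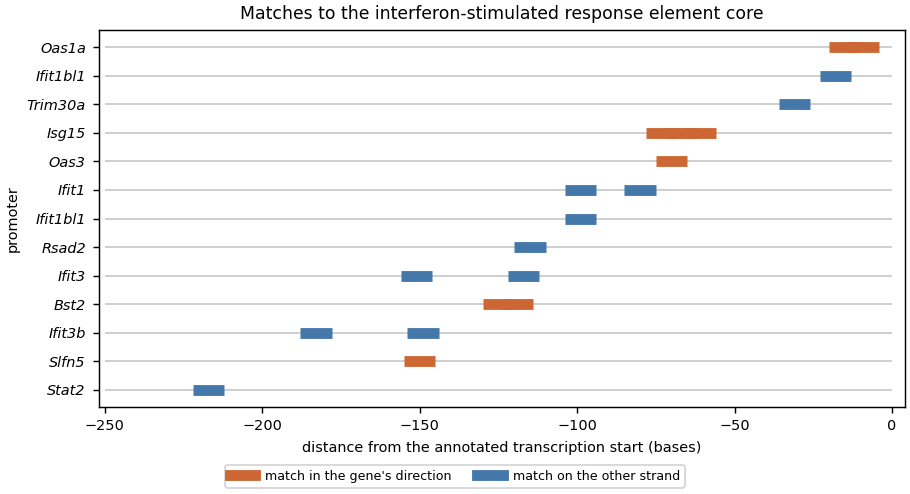
Positions of matches to the interferon-stimulated response element core in the upstream 250 bases of 13 promoters of 12 members. The horizontal axis is the distance from the annotated start in bases, each bar is 1 match or a run of overlapping matches, orange in the direction of the gene and blue on the other strand. Ifit1bl1 has 2 promoters in the table.

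The libraries were small. Reads recovered from the deposited values numbered 11170 to 266392 per library, and the mitochondrial share ran from 2.39% to 71.9%. Levels between sorts are therefore given as CPM, here the reads of a gene scaled per-million to the reads of all nuclear genes. The limit that a count of 0 allows, 3 reads, corresponds to 11.9 to 313.8 CPM (counting error only). The libraries labelled CD4 anti-PD-1 replicates 1 and 2 held 0 and 1 reads of the T cell gene Cd3e, against 10 to 45 in the other 4 of that sort. Their summed macrophage and monocyte markers (20 genes, all with reads in that sort) stood at 84069 and 84805 CPM. In the dendritic cell sort the same 20 markers summed to 16632 to 80241 CPM, more than the 15 dendritic cell markers in each of its 6 libraries. The smallest library, dendritic D18 replicate 2, held 40 member reads from 13 of the 36 genes. Libraries of anti-PD-1 replicates 1 and 2 in every sort lacked reads of 3 mitochondrial genes (mt-Atp6, mt-Co2 and mt-Co3) that the other 12 libraries held. No label calls this split a batch. Within the 12, each sort keeps only 1 anti-PD-1 library, so results are also given from a fit with the split as a term, which rests on anti-PD-1 replicate 3 as the control. The fewer reads of a gene in a bulk library can mean fewer cells of a type or less RNA per cell, which cannot be told apart here.

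Per length, Ifi27l2a, a small interferon-induced membrane protein, ranked first in all 3 sorts. Its level was 2305 ± 1509 CPM per kilobase in the CD8+ sort, 3566 ± 3469 in the CD4 sort and 2432 ± 1464 in the dendritic sort (mean ± SD, n = 6 libraries of both treatments). Bst2, the tetherin that holds virus particles at the cell surface, ranked second at 397.3 ± 165, 602.3 ± 389 and 640.7 ± 378. Ifit3, Irf7 and Oas1a came next in the CD8+ and dendritic sorts, with means between 109.1 and 196.5 CPM per kilobase that differed by less than the SD of Ifit3 within each sort. In the CD4 sort Rtp4, at 146.5 ± 86.1, stood beside Oas1a at 142.9 ± 92.0 and Ifit3 at 141.5 ± 53.4. Isg15, the ubiquitin-like modifier, had 16, 33 and 42 reads in all in the 3 sorts. Ifi44l had 1 read in the whole series, in the smallest library, and Herc6, the mouse Isg15 ligase, averaged 1.20 to 3.98 CPM per kilobase. For no member did the 6 libraries of one sort all lie above or below those of another.

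**Figure D2:**
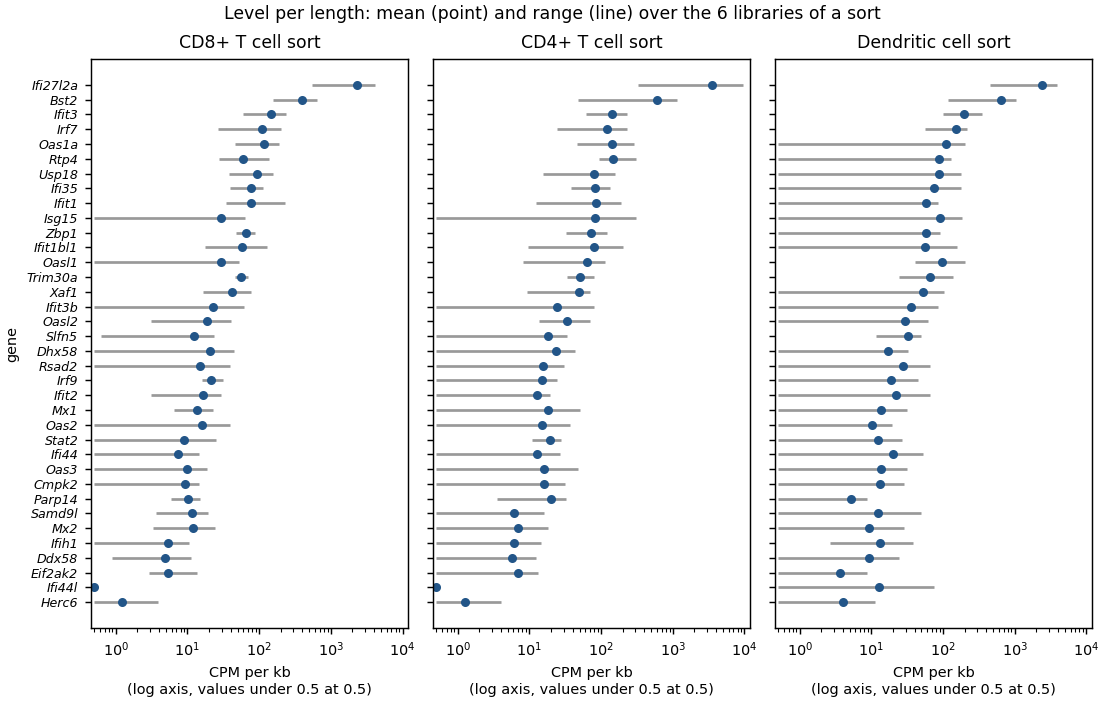
Level of each of the 36 genes in each sort, in CPM per kilobase of exon on a log axis. Points are means and lines ranges over 6 libraries. Ifi27l2a and Bst2 stand above the others in every sort, and many lines reach 0, drawn at the left edge.

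**Figure D3:**
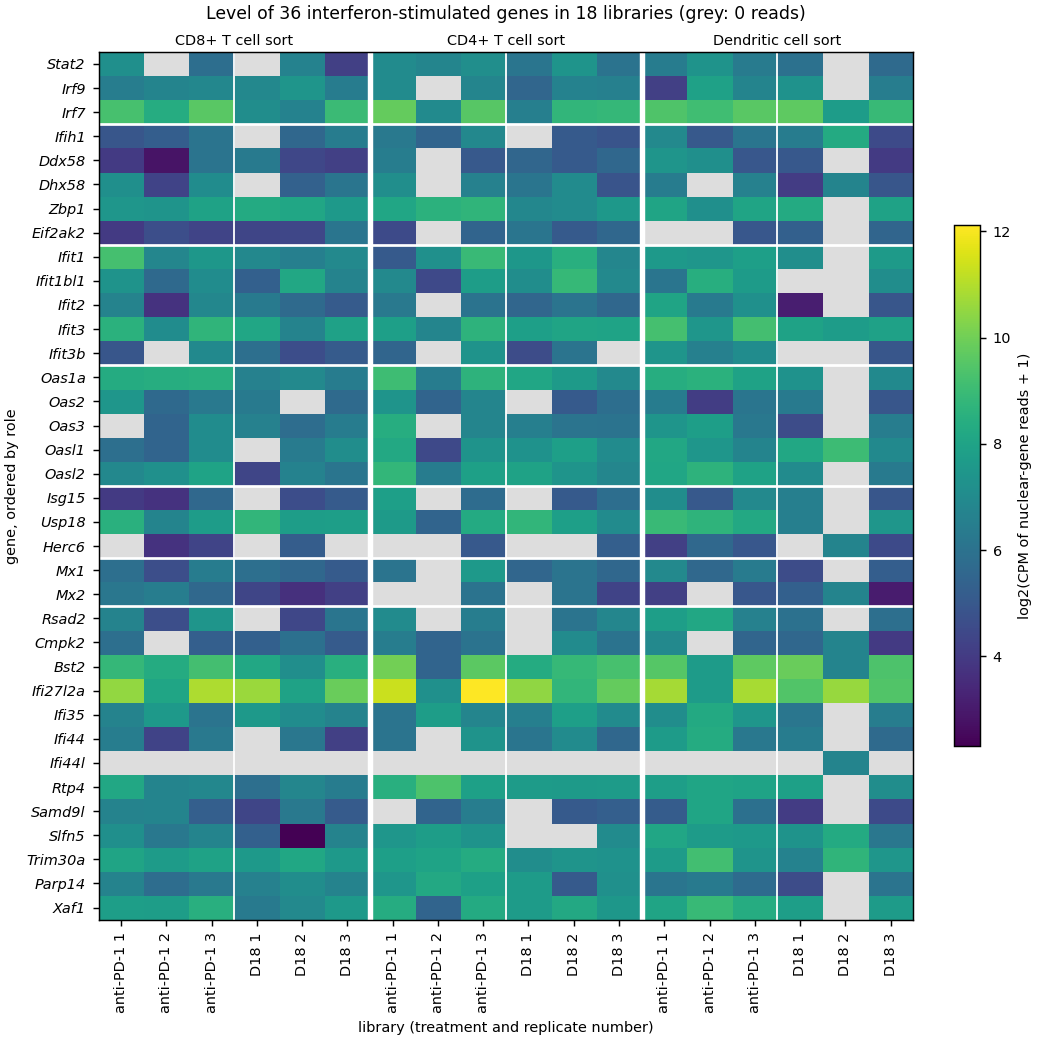
Level of the 36 genes in the 18 libraries as log2(CPM + 1), genes ordered by role from transcription factors at the top to other effectors at the bottom. Grey cells hold 0 reads. Dendritic D18 replicate 2 has 23 grey cells and CD4 anti-PD-1 replicate 2 has 14.

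The first question was whether adding D18 to anti-PD-1 changed these genes in any sort. No member passed the test in any sort: limma on log2(normalised reads + 1), with p-values adjusted by Benjamini-Hochberg over all genes with a mean of at least 10 normalised reads, called 0 of 15 tested members in the CD8+ sort, 0 of 15 in the CD4 sort and 0 of 14 in the dendritic sort. It called none of the 1569, 966 and 886 genes tested either (0% in each sort), and limma-voom also called 0. At an unadjusted p under 0.05 stood 1 member in each sort, or 1 of 15, 1 of 15 and 1 of 14, beside 8.29%, 10.4% and 6.88% of all genes. Samples of the same replicate number deviated together in the CD8+ sort, a pairing that the labels do not state. With that number as a block limma called 20 of the 1569 genes of that sort (1.27%) and none of the members. At an unadjusted p under 0.05 the blocked fit had 5 of 15 members (Bst2, Irf7, Oas1a, Oasl2 and Xaf1, all lower), beside 20.1% of genes. What the data hold is therefore a set of levels and directions, most of them lower with D18. A lower mean was found for 10 of 15 tested members in the CD8+ sort, beside 51.7% of genes, and the median log2 change was -0.55 beside -0.03 for all genes. That median was -1.07 without anti-PD-1 replicate 2, -0.35 without anti-PD-1 replicate 1 and -0.22 without anti-PD-1 replicate 3. The CD4 sort had 8 of 15 lower (11 under limma-voom), near the 48.4% of genes, and a median of -0.29 beside 0.03. The dendritic sort had 13 of 14 lower, beside 69.1% of genes, and a median of -0.90 beside -0.65. Quantile scaling put the dendritic medians at -0.37 and -0.07, with 10 of 14 lower. Without D18 replicate 2 they were -0.46 for the members, 10 of 14 lower, and 0.06 for all genes. The CD4 median turned to 0.05 without anti-PD-1 replicate 1 and to 0.38 without anti-PD-1 replicate 3. It was -0.81, with 14 of 15 lower, without the libraries that held at most 1 Cd3e read. Only anti-PD-1 replicate 3 was then left as a control. With the mitochondrial split as a term the members' medians were -0.79 (CD8+), -0.81 (CD4) and -1.29 (dendritic). The medians of all genes were then -0.10, -0.19 and -0.72. Lower in that fit were 13 of 15, 14 of 15 and 12 of 14 members, again against anti-PD-1 replicate 3 alone.

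Members whose 3 D18 libraries all lay below the 3 others numbered 3 of 15 in the CD8+ sort, 3 of 15 in the CD4 sort and 4 of 14 in the dendritic sort. The same held for 7.65%, 9.21% and 19.9% of all genes tested, so the dendritic share stands in a sort where many genes were lower. Of the members counted, all but Xaf1 in the CD8+ sort and Rtp4 in the CD4 sort averaged under 10 normalised reads with D18. They passed the filter only through the anti-PD-1 group, so the direction of their mean was fixed by the filter. Without anti-PD-1 replicate 2 the CD8+ and the CD4 count were each 8 of 15, beside 11.9% and 13.4% of genes. Members whose D18 libraries all lay above the others numbered 0 in each sort, beside 6.88%, 5.28% and 4.18% of genes. Of the 12 members tested in all 3 sorts, 6 (Ifi27l2a, Irf7, Oas1a, Oasl2, Rtp4 and Trim30a) had a lower mean log2 value with D18 in all 3, and none had a higher one in all 3. The share of all genes lower in all 3 sorts was not counted. In the single sorts 51.7% (CD8+), 48.4% (CD4) and 69.1% (dendritic) of genes were lower. Leaving out 1 library turned the direction of 5 of these 6 members in at least 1 sort. The highest values then reached were 0.46, 0.38 and 0.47 for Ifi27l2a (CD8+, CD4 and dendritic), 0.26 for Oasl2 and 0.05 for Oas1a (both CD4, without anti-PD-1 replicate 1), 0.03 for Irf7 (dendritic, without D18 replicate 2) and 0.02 for Trim30a (dendritic, without anti-PD-1 replicate 2). Rtp4 stayed below 0 each time. The dendritic direction of Ifi27l2a also turned under total-read and quantile scaling.

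**Figure D4:**
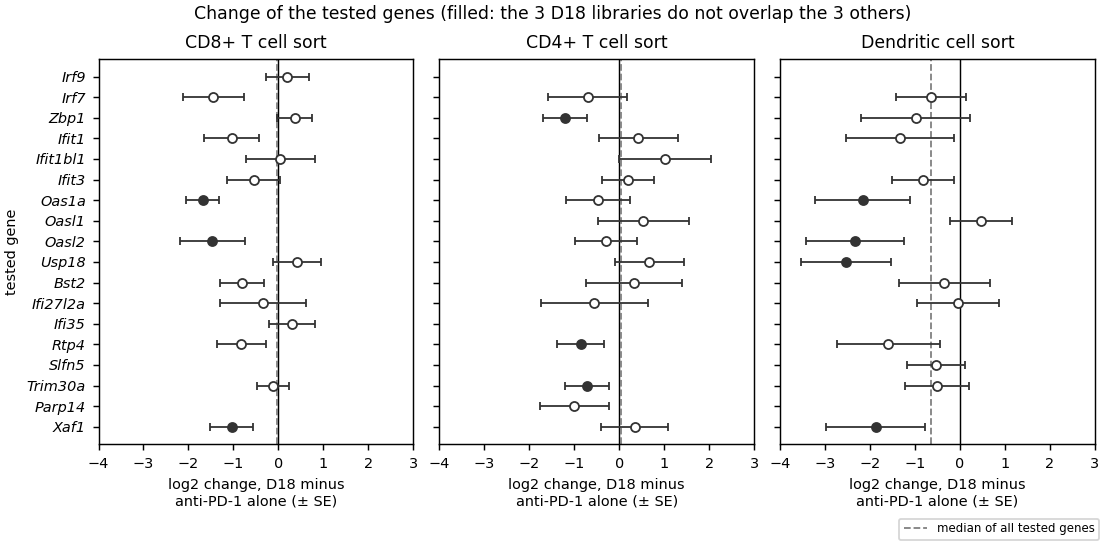
Change with D18 of each tested member in each sort, as the difference of mean log2(normalised reads + 1) with its SE from limma. Filled points mark members whose 3 D18 libraries do not overlap the 3 others: Oas1a, Oasl2 and Xaf1 in the CD8+ sort, Zbp1, Rtp4 and Trim30a in the CD4 sort, and Oas1a, Oasl2, Usp18 and Xaf1 in the dendritic sort. Except Xaf1 in the CD8+ sort and Rtp4 in the CD4 sort, the filled members passed the filter only through the anti-PD-1 group. The dashed line is the median of all genes tested.

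The transcription factors of the response were led by Irf7, which switches on interferon alpha genes and amplifies the signal. In the CD8+ sort Irf7 stood at 56.6, 29.97 and 77.8 normalised reads with anti-PD-1 alone and at 13.1, 8.55 and 50.5 with D18. D18 replicate 3 lay within the range of the controls, so the groups overlapped, and the log2 change was -1.45 ± 0.67 (SE, limma adjusted p = 0.617). With the replicate number as a block Irf7 had an adjusted p of 0.0977. Its CD4 values were 55.9, 6.94 and 46.1 against 5.65, 24.4 and 28.3. There the lowest control was the library with 1 Cd3e read, and the change was -0.70 ± 0.89 on the log2 scale. Dendritic libraries gave Irf7 values of 41.3, 35.9 and 48.3 against 57.5, 9.63 and 31.1, a change of -0.65 ± 0.77. The highest and the lowest value both belonged to D18. The members of the complex that binds the response element had fewer reads: Irf9 passed the filter in the CD8+ sort alone (log2 change 0.20 ± 0.49) and Stat2 in none.

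Among the sensors, Zbp1, which detects Z-form nucleic acid and can start necroptosis, was the one tested. It measured 17.5, 20.8 and 25.3 normalised reads with anti-PD-1 alone and 7.06, 7.50 and 11.5 with D18 in the CD4 sort. The groups did not overlap, and the log2 change was -1.21 ± 0.49 (unadjusted p = 0.0326, limma adjusted p = 0.453). Without the libraries that held at most 1 Cd3e read, which left anti-PD-1 replicate 3 as the only control, the change was -1.47. Its change was 0.36 ± 0.39 in the CD8+ sort. The dendritic change was -0.99 ± 1.21, with no read in D18 replicate 2, and turned positive under quantile scaling and limma-voom and, at 0.46, without that library. The other 4 sensors, Ifih1, Ddx58, Dhx58 and Eif2ak2, stayed under the filter in every sort.

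The IFIT proteins bind foreign RNA and hinder its translation. Ifit3 was the highest of them per length in each sort. It read 35.0, 12.2 and 42.3 against 26.2, 8.90 and 23.6 normalised reads in the CD8+ sort, with overlapping groups and a log2 change of -0.55 ± 0.59. The dendritic values were 37.1, 11.6 and 36.4 against 17.4, 9.63 and 15.8, a change of -0.82 ± 0.69. Both times the lowest control was anti-PD-1 replicate 2. Ifit3 shares 51.2% of its 50-base windows with Ifit3b, so reads can be split between them. Summed, the pair lay at 47.7, 17.9 and 45.0 against 17.4, 9.63 and 17.7 in the dendritic sort, where the groups parted by a narrow margin. The 3 IFIT genes tested in the CD4 sort had changes between 0.20 and 1.02, each within its SE.

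The oligoadenylate synthetases, which on binding double-stranded RNA make the signal for RNase L, held the member with the lowest unadjusted p, Oas1a in the CD8+ sort. It measured 29.7, 30.5 and 36.5 normalised reads with anti-PD-1 alone and 9.35, 10.3 and 8.42 with D18. Every D18 value was under every control value, and within each group the libraries lay close together. The log2 change was -1.68 ± 0.36 (unadjusted p = 0.00136, limma adjusted p = 0.534). With the replicate number as a block the adjusted p was 0.0623, and with the mitochondrial split as a term the change was -1.86 ± 0.57. Dendritic Oas1a measured 21.2, 25.3 and 15.6 against 10.9, 0 and 8.13. The 0 belonged to the smallest library, without which the change moved from -2.16 ± 1.06 to -1.04. Oas1a values in the CD4 sort were 34.2, 4.62 and 24.0 against 16.9, 11.3 and 7.50, so that the library with 1 Cd3e read was the lowest of all, and the change was -0.47 ± 0.72. Oas1a shares 57.6% of its 50-base windows with Oas1g and Oas1b. Summed over the 3 genes, the CD8+ values were 29.7, 32.2 and 46.1 against 9.35, 11.3 and 11.8, and the dendritic values 26.5, 34.8 and 26.5 against 13.0, 0 and 9.08, and both groups stayed apart.

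Oasl2, an OAS-like protein with ubiquitin-like domains, had 10.8, 13.3 and 25.9 against 1.87, 8.55 and 6.74 normalised reads in the CD8+ sort, a log2 change of -1.47 ± 0.72. It had 16.9, 26.4 and 15.6 against 9.22, 0 and 5.26 in the dendritic sort, a change of -2.33 ± 1.09 that was -1.33 without D18 replicate 2. The groups were apart in both sorts. They overlapped in the CD4 sort, where the change was -0.29 ± 0.69. Oasl1, which in mice restrains translation of Irf7, was the one tested member higher with D18 in the dendritic sort, at 0.47 ± 0.68. In CPM the 5 OAS family members (Oas1a, Oas2, Oas3, Oasl1 and Oasl2) summed to 675, 623 and 963 against 293, 357 and 428 in the CD8+ sort, and to 1171, 1199 and 745 against 676, 523 and 447 in the dendritic sort, with no overlap in either. The CD4 sums were 1783, 236 and 1013 against 774, 694 and 486, with overlap.

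Usp18, which removes Isg15 from proteins and blocks Ifnar2, had a lower mean with D18 in the dendritic sort. Dendritic libraries held 30.7, 27.4 and 18.9 normalised reads with anti-PD-1 alone and 6.51, 0 and 11.5 with D18. The groups were apart and the log2 change was -2.53 ± 1.00 (unadjusted p = 0.0338, limma adjusted p = 0.551), or -1.44 without the smallest library. Usp18 in the CD8+ sort gave 33.7, 9.44 and 21.1 against 41.1, 18.8 and 21.9, a change of 0.42 ± 0.53. The CD4 change was 0.67 ± 0.77, with overlapping groups. Without anti-PD-1 replicate 2 these changes were -0.05 and -0.10. The CD4 change was -0.38 against anti-PD-1 replicate 3 alone, without the libraries that held at most 1 Cd3e read. The difference between these changes was tested by limma over all 18 libraries. For Usp18 the CD4 change exceeded the dendritic one by 3.19 ± 1.24 (unadjusted p = 0.0200, adjusted p = 0.763), and the CD8+ change exceeded it by 2.95 ± 1.23 (unadjusted p = 0.0291, adjusted p = 0.984). Across the genes tested in each pair of sorts, 0 of 916, 0 of 816 and 0 of 744 passed (0% each), with 7, 6 and 22 at an unadjusted p under 0.05. Members made up 13, 12 and 13 of the genes tested, and 0, 1 and 1 of those at an unadjusted p under 0.05, the 1 being Usp18 each time.

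Among the other effectors, Xaf1, a partner of the apoptosis inhibitor XIAP, was lower in 2 sorts without overlap. It gave 20.2, 19.4 and 36.5 against 7.48, 10.3 and 18.5 normalised reads in the CD8+ sort, a log2 change of -1.04 ± 0.47. Dendritic Xaf1 gave 15.9, 31.7 and 20.8 against 15.7, 0 and 13.4, where the gap between the groups was small. The dendritic change was -1.88 ± 1.09, and -0.56 without D18 replicate 2.

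Rtp4, a chaperone of cell surface receptors, gave in the CD4 sort 23.1, 35.8 and 14.3 against 12.7, 11.3 and 12.7 normalised reads. The change was -0.85 ± 0.52. It was -0.21 against anti-PD-1 replicate 3 alone, without the libraries that held at most 1 Cd3e read. Trim30a, a TRIM protein that limits inflammatory signalling, gave 14.7, 13.9 and 19.5 against 8.47, 9.38 and 9.81. These D18 libraries lay close together below all controls, with a change of -0.72 ± 0.49. Trim30a in the dendritic sort gave 12.7, 36.9 and 10.4 against 7.05, 19.3 and 11.5, with overlap and a change of -0.51 ± 0.72.

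The most abundant member, Ifi27l2a, overlapped between the groups in all 3 sorts. It stood at 135, 23.9 and 191 against 151, 21.6 and 92.6 normalised reads in the CD8+ sort (log2 change -0.34 ± 0.96). The CD4 values were 164, 8.09 and 266 against 89.0, 24.4 and 54.8 (-0.55 ± 1.20). The dendritic values were 108, 13.7 and 115 against 48.8, 72.2 and 45.4 (-0.05 ± 0.91), a direction that turned under total-read and quantile scaling. Bst2 gave 41.8, 28.9 and 58.6 against 28.0, 12.3 and 35.4 in the CD8+ sort, with overlap (-0.81 ± 0.50). Bst2 in the CD4 sort gave 65.7, 2.31 and 48.1 against 19.8, 26.3 and 37.5 (0.34 ± 1.07), and the controls held both the highest and the lowest value. The dendritic sort gave 45.5, 13.7 and 51.1 against 65.6, 4.81 and 43.5 (-0.35 ± 1.02), with both extremes in D18. The direction of Bst2 in the CD4 sort turned under limma-voom and in the dendritic sort under quantile scaling and, at 0.73, without D18 replicate 2.

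Of the 22 members too low to test in the dendritic sort, 17 had a lower mean with D18. The share among all genes that low was not counted. On the log2 scale 69.1% of the genes tested were lower, but 38.3% of the 17841 genes in the fit with no filter. Neither share is matched to the level of these members. Of these members, 21 had a mean of 1 to under 10 normalised reads. Among the 21, 7 (Ifi35, Ifit2, Ifit3b, Mx1, Rsad2, Samd9l and Stat2) had all 3 D18 libraries below all controls, against 8.2% of genes in that range. D18 replicate 2, the smallest library, had no read of any of the 7. They were named after their values were seen, and no test was made. Ifit2 had 40 reads with anti-PD-1 alone and 5 with D18, and Rsad2, the antiviral radical enzyme viperin, had 44 and 16. All D18 libraries lay below all controls for 1 of 20 such members in the CD8+ sort, Mx2, with 24 reads against 5, beside 7.37% of genes. The CD4 sort had 2 of 19, Ifih1 and Slfn5, beside 5.34%.

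Summed over all 36 genes, the level in CPM was 8923, 7080 and 8130 with anti-PD-1 alone and 5514, 4184 and 4585 with D18 in the dendritic sort. The groups did not overlap, and the D18 mean was 59.2% of the other. The CD8+ sums were 7098, 3440 and 7600 against 4632, 3441 and 4536, and in the CD4 sort 9784, 3193 and 11721 against 5033, 5551 and 4971. In both of these sorts anti-PD-1 replicate 2 was the lowest library and the groups overlapped. The 20 macrophage and monocyte markers and the T cell markers are set beside these sums. For the macrophage and monocyte markers dendritic libraries summed to 55723, 80241 and 53937 against 48422, 16632 and 36610, also without overlap, and the D18 mean was 53.5% of the other. CD8+ libraries summed to 35387, 29959 and 58267 against 6020, 7193 and 35622, with 17 of 19 tested markers lower. CD4 libraries summed to 84069, 84805 and 30715 against 12116, 28976 and 35603, again with 17 of 19 tested markers lower. The 14 T cell markers summed to 44, 407 and 7186 CPM against 9337, 7368 and 6336 in the CD4 sort, where all 10 tested had a higher mean with D18 (median log2 change 3.06, 5 at an unadjusted p under 0.05). Their sums were 9459, 12775 and 3519 against 10730, 13889 and 5187 in the CD8+ sort, with 12 of 14 higher. Dendritic libraries held 17, 80 and 3362 CPM of them against 186, 628 and 7126. The part of either marker set in the levels of the interferon-stimulated genes was not tested.

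**Figure D5:**
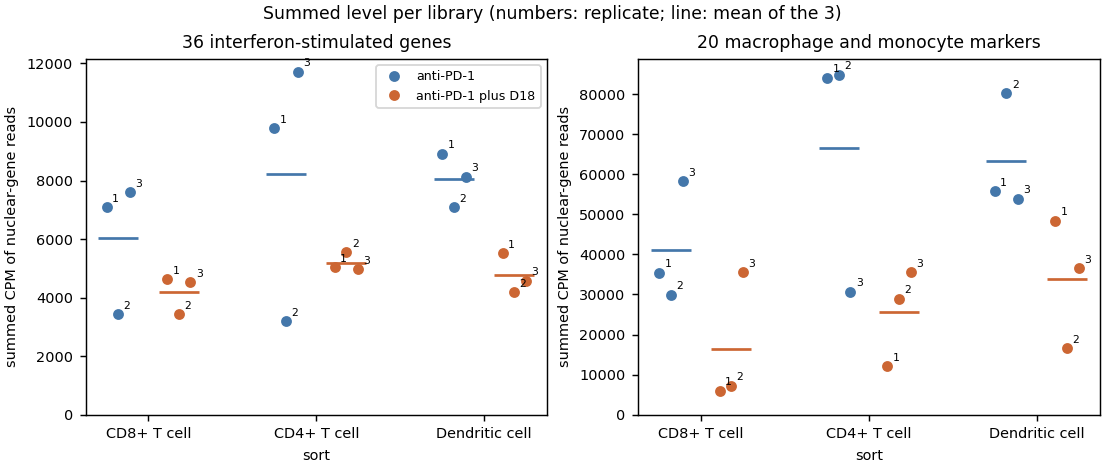
Summed level per library of the 36 interferon-stimulated genes (left) and of 20 macrophage and monocyte markers (right), in CPM of nuclear-gene reads. Points are libraries with their replicate number and lines are means of 3. In the dendritic sort both sums are lower in all D18 libraries than in all others.

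The genes upstream of the response gave little signal. Of 20 interferon ligand genes, 5 had reads, 6 reads in all 18 libraries together, and Ifnb1 had none. Ifnar1 had 0 to 12 reads per library and stayed under the filter. Ifnar2 read 147, 136 and 172 CPM against 59, 131 and 86 in the CD8+ sort (log2 change -0.73 ± 0.48 on normalised reads), and 275, 536 and 129 against 91, 33 and 103 in the CD4 sort (-1.70 ± 0.89). The groups were apart in both. Dendritic Ifnar2 stayed under the filter and read 224, 224 and 135 CPM against 47, 0 and 95, also apart. The 0 belonged to D18 replicate 2, the smallest library.

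Other interferon genes were counted from lists. Of 58 further type I interferon-stimulated genes, 22 were tested in the dendritic sort, and all 22 had a lower mean, the median being -1.49 (log2) beside -0.65 for all genes. That became 18 of 22 and -0.55 beside 0.06 without D18 replicate 2, and 18 of 22 and -0.72 beside -0.07 under quantile scaling. None passed the adjusted test. The CD8+ sort had 19 of 27 lower (median -0.18) and the CD4 sort 12 of 23 (median -0.20, but 0.05 without D18 replicate 1). At an unadjusted p under 0.05 were, in the dendritic sort, the DNA sensor Ifi204 (-2.68 ± 1.00) and Ms4a4c (-2.49 ± 0.85), both lower. The CD4 sort had Ifi204 (-1.82 ± 0.55), Ifitm2 (-1.63 ± 0.66) and Ms4a4c (-1.34 ± 0.57), also lower. Lgals3bp in the CD8+ sort was lower (-1.49 ± 0.48) and Ifi213 higher (1.08 ± 0.46). Genes induced mainly by interferon gamma had 11 of 15 higher in the CD8+ sort (median 0.54, or 9 of 15 and 0.20 without anti-PD-1 replicate 2, and 9 of 15 and 0.33 without anti-PD-1 replicate 3), 11 of 12 in the CD4 sort (median 1.12) and 6 of 11 in the dendritic sort (median 0.12). Without D18 replicate 2 all 11 of the dendritic ones were higher (median 0.60), and with the mitochondrial split as a term 5 of 11 were (median -0.13). The dendritic median was also below 0 without anti-PD-1 replicate 2 (-0.34), D18 replicate 1 (-0.45) or D18 replicate 3 (-0.28). That term took the CD4 count to 8 of 12 (median 0.14), in the sort where the T cell marker sums differ as given above. Of these, Gbp2 (2.58 ± 0.93), Gbp7 (3.17 ± 1.38) and Irgm1 (1.18 ± 0.50) in the CD4 sort and Gbp7 (2.06 ± 0.80) in the dendritic sort were higher, and Serpina3g (-1.57 ± 0.58) in the CD8+ sort was lower, at an unadjusted p under 0.05. At the same level stood also the phosphatase Ptpn6 in the CD8+ sort (-2.93 ± 1.11), and the Toll-like receptor chaperone Unc93b1 in the dendritic sort (-1.41 ± 0.61).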

How the data were processed

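The deposited tables, 1 per sort, hold log2-scale values of the authors. The submitters' processing notes list STAR 2.4.0, HTSeq 0.6.1, DESeq2 and mm10, and the transform and the treatment of reads matching several genes are not given in the sources used here. The values were inverted as a log2 variance-stabilising transform with a fixed floor per table, which gave whole reads for 100% of values (largest distance 1.01e-09). Tables were normalised separately, so treatments were compared within each sort, and the differences between sorts in that change were tested over all 18 libraries. Of 46983 identifiers, 46488 had a symbol in GENCODE M21.

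Groups were compared with limma 3.58.1 (trend, robust, statmod 1.5.0, R 4.3.3) on log2(normalised reads + 1), keeping genes whose 6 libraries averaged 10 or more, at an adjusted p of 0.05. Genes under that average were left untested, and one that passed only through its higher group had to differ. The fit was run on simulated data with large known changes, as a check of the direction of its estimates. That run did not model outlying or mixed libraries, so it gives no measure of power here. Scaling, pseudocount, filter, block, test and left-out libraries were varied.

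Members and lists were chosen with earlier results of these data known. Members are named per library where the unadjusted p was under 0.05, the groups did not overlap, or the mean level was among the 5 highest. Same-numbered libraries deviated together in the CD8+ sort (correlations 0.36, 0.51 and 0.56), where the number was taken to pair them. The labels state no pairing, and it was read from these same values. Figures were drawn with Python 3.11.15 and matplotlib 3.10.9.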

Additional observations from a re-analysis of the deposited data

How the results depend on the processing

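No member was called in any sort under any of 18 (CD8+), 20 (CD4) and 19 (dendritic) alternatives, and the lowest adjusted p of a member was 0.0623 (CD8+, replicate block), 0.255 (CD4) and 0.132 (dendritic). The number of genes called, 0 in each sort, became 22 (CD8+) and 29 (CD4) with no filter, 1 (CD8+) on the deposited log2 values, 20 (CD8+) with the replicate block, 34 (CD4) without both libraries numbered 3, and in the dendritic sort 1 with quantile normalisation and 11 without the libraries over 50% mitochondrial or under 20000 reads. Leaving out 1 library gave 0 to 2 in the CD8+ sort and 0 to 19 in the CD4 sort (19 without anti-PD-1 replicate 3). The cause was not tested. No CD8+ library met that last limit, so it gave no value there.

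The members' median log2 change lay between -1.07 (without anti-PD-1 replicate 2) and -0.22 (without anti-PD-1 replicate 3) in the CD8+ sort when 1 library was left out. Over all alternatives it was below 0 in 18 of 18 (CD8+), 17 of 20 (CD4) and 19 of 19 (dendritic). In the CD4 sort it reached 0.05, 0.38 and, without both libraries numbered 3, 0.30. Single members changed sign 10, 33 and 17 times in the 3 sorts. Some CD4 alternatives gave the same estimates and are counted separately here and above. The split term matched the omission of the libraries with at most 1 Cd3e read. The omission of anti-PD-1 replicate 2 matched that of libraries over 50% mitochondrial or under 20000 reads. A sign change was judged against the replicate SD where the change was under its SE, and every sign change was of that kind. The numbers did not pair libraries in the CD4 and dendritic sorts (correlations -0.14, 0.15, -0.20 and 0.03, -0.09, 0.14), and the replicate block called 0 genes in both.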

Other observations

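Ifi27l2a was low in libraries numbered 2. It read 265 and 250 CPM of nuclear-gene reads in the CD8+ replicates 2 (anti-PD-1, then D18), against 941 to 1898 in the other 4 CD8+ libraries. Its CD4 values were 150 and 430 against 888 to 4417 CPM. Dendritic anti-PD-1 replicate 2 read 208 CPM, against 696 to 1827 in the other libraries. Dendritic D18 replicate 2, at 1569 CPM from 15 reads, was the exception. The pattern was noticed after the values were seen and was not tested.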
